A study of Rattus norvegicus with 6 samples.

Results

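The genes described here encode the machinery that builds and serves the primary cilium and the centrosome beneath it, together with the genes named Ttc for the tetratricopeptide repeat (TPR). They were taken from the count table by name, as every gene whose name starts with Ttc, Ift, Bbs, Cep or Nphp followed by a digit, plus Tmem67, Tctn1 to Tctn3, Mks1, Arl3, Arl6 and Arl13b. This gave 102 of 32883 genes, of which 37 carry a Ttc name and 65 do not. Members were chosen by name, and the set itself was selected on the fold changes of pool A against pool B, which were already known when it was proposed. Its counts and medians are therefore descriptions, and no test was run over the set or between the Ttc names and the rest.

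A primary cilium is a microtubule-based antenna that grows from the mother centriole. Intraflagellar transport (IFT) trains carry its cargo, with complex IFT-B serving the outward journey on kinesin and complex IFT-A the return on dynein, while the BBSome is an adaptor that takes membrane proteins out of the cilium. The transition zone at the base acts as a gate, and the small GTPases Arl3, Arl6 and Arl13b direct the release and sorting of cargo. The TPR is a helical repeat that binds other proteins. It occurs in several IFT and BBSome subunits, among them products of Ttc genes, and also in chaperone partners, ubiquitin ligases and RNA decay factors that have no part in cilia.

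RNA came from wild type GH4C1 cells, an established rat cell line from the pituitary with features of growth hormone and prolactin cells, treated in every group with psoralen, which crosslinks base-paired strands. RNA was pulled down with oligo pool A or oligo pool B, 3 libraries each, in a search for RNAs bound to the long noncoding RNA Neat1. The labels give neither the oligonucleotides of a pool nor whether either was a control, and input RNA was not analysed here. A level in such a library depends on how much of the RNA the cells held and on how much of it was recovered, and these cannot be told apart. Nor do the labels say that libraries came from separate cultures, so p-values measure only the spread between these libraries, which may be technical.

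Total counts were between 1826390 and 3685899 per library, and levels are given as CPM, in which each library's counts are scaled to a common total. A gene at 0 counts could still hold up to 3 counts, or 0.814 to 1.64 CPM depending on the library, and such limits cover counting error only. In each library, 84 to 91 of the 102 genes reached 10 counts. The lineage markers were present in every library, with Prl at 386 to 759 CPM, Gh1 at 149 to 187 CPM and Pou1f1 at 139 to 227 CPM. Of 10 genes of motile, multiciliated cells, 9 were in the table. The regulators Mcidas, Gmnc and Ccno and the axonemal genes Dnah5 and Rsph4a had 0 counts in all libraries, while the 9 genes together summed to 7.51 to 21.2 CPM with pool A and 48.1 to 62.4 CPM with pool B, mostly from Dnai1 and Rsph1. Their part in the values below was not tested.

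As a whole, the cilium, centrosome and TPR genes took a larger share of the counts with pool B. With pool A they held 0.460% ± 0.049 (SD, n = 3) and with pool B 0.875% ± 0.040 (SD, n = 3). A single gene carried much of this. Cep250, which encodes the linker protein that ties the paired centrioles of a cell together, had a share of 0.0865% ± 0.0184 in pool A libraries and 0.339% ± 0.043 in pool B libraries (SD, n = 3 each). Without Cep250 the shares were 0.374% ± 0.033 and 0.536% ± 0.004 (SD, n = 3 each). The Ttc genes alone held 0.104% ± 0.006 and 0.187% ± 0.004 (SD, n = 3 each). Libraries with pool A also gave more of their counts to a run of 22 rows around the 5.8S ribosomal RNA gene, 13.3% to 22.9% against 6.07% to 11.1%. Computed on the counts outside that run, the share of the 102 genes was 0.564% ± 0.027 with pool A and 0.953% ± 0.022 with pool B (SD, n = 3 each).

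**Figure D1:**
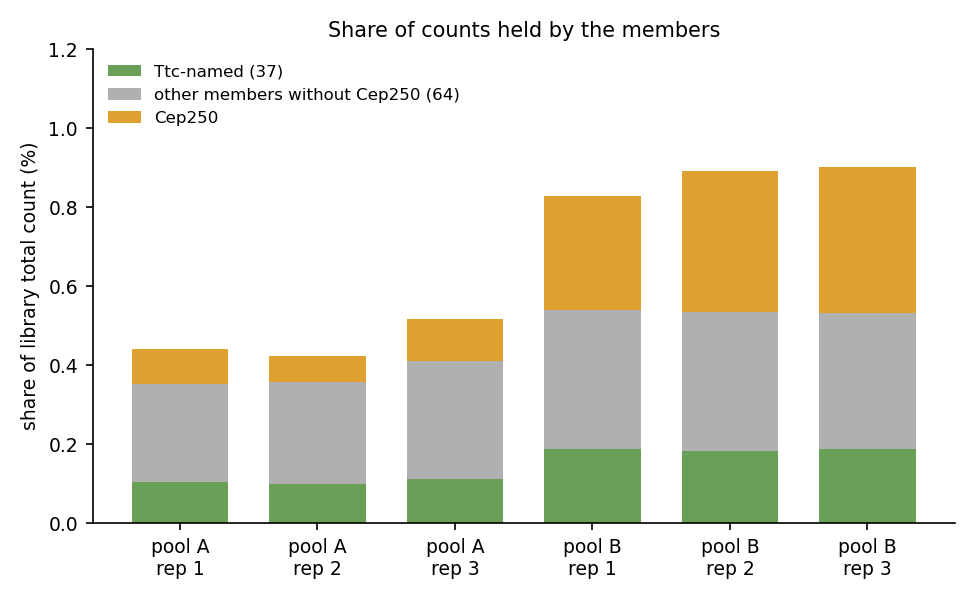
Stacked bars show the percentage of each library's total count held by the 37 Ttc genes, by Cep250 and by the other 64 genes, with 1 bar per library. The pool B bars reach 0.829% to 0.903% and the pool A bars 0.424% to 0.516%, and the Cep250 segment is larger in every pool B library than in any pool A library.

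Gene by gene, the pools were compared with edgeR's quasi-likelihood test over the whole table, and in the log2 fold changes pool A is divided by pool B, here also called log2 ratios, so negative values mean more RNA with pool B. Of the 102 genes, 91 passed the expression filter. Past an adjusted p of 0.05, pool A gave the higher level for 14 and pool B for 24, or 15.4% and 26.4% of the tested members, against 18.6% and 22.0% of all 11582 tested genes. In either direction 41.8% were called, against 40.6% of all tested genes, which is close to the background. The CPM ranges of the pools were separate for 45 of the 91 (49.5%), against 49.1% of all tested genes. The median log2 fold change of the 91 was -0.22, and that of all tested genes was 0.02. The 14 genes higher with pool A became 8 with library totals in place of TMM scaling and 9 in the fit without the third pool A library, as in the fit without the third pool B library. With library totals, genes higher with pool A made up 20.5% of the called members in place of 36.8%, and among all tested genes 36.9% of the calls in place of 45.8%, while members higher with pool B went from 24 to 31.

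The Ttc names lay further toward pool B than the other names. Of 27 tested Ttc genes, 10 were higher with pool B (37%) and 3 with pool A (11.1%). Of 64 tested genes with other names 14 (21.9%) and 11 (17.2%) were, near the 22.0% and 18.6% of all tested genes. The 11 higher with pool A were 7 without the third library of either pool. With library totals, 21 of the 64 (32.8%) were higher with pool B. The Ttc genes stayed at 10 of 27 (37%), and all tested genes stood at 25.2%. The distance between Ttc and other names in pool B calls thus depended on the scaling. Ranges were separate for 17 of the 27 Ttc genes (63%) and 28 of the other 64 (43.8%), against 49.1% of all tested genes. The median log2 fold change was -0.65 for the Ttc genes, with the middle of the distribution between -1.07 and 0.23, and -0.11 for the others, with the middle between -0.60 and 0.42. Leaving out pool B replicate 1 brought the Ttc median to -0.28, and leaving out pool A replicate 2 brought it to -0.44, while 10 or 11 Ttc genes were called higher with pool B in each of the 6 fits that leave out a library. The remaining 10 Ttc genes did not pass the filter. Ttc29 and Ttc34 had no count in any library, Ttc22, Ttc23, Ttc36, Ttc39d and Ttc9b had at most 5 in any, and Ttc21a, Ttc28 and Ttc30a1 had more but too few to be tested. Ttc28 had 1, 0 and 1 counts in the pool A libraries and 10, 5 and 6 in the pool B libraries.

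**Figure D2:**
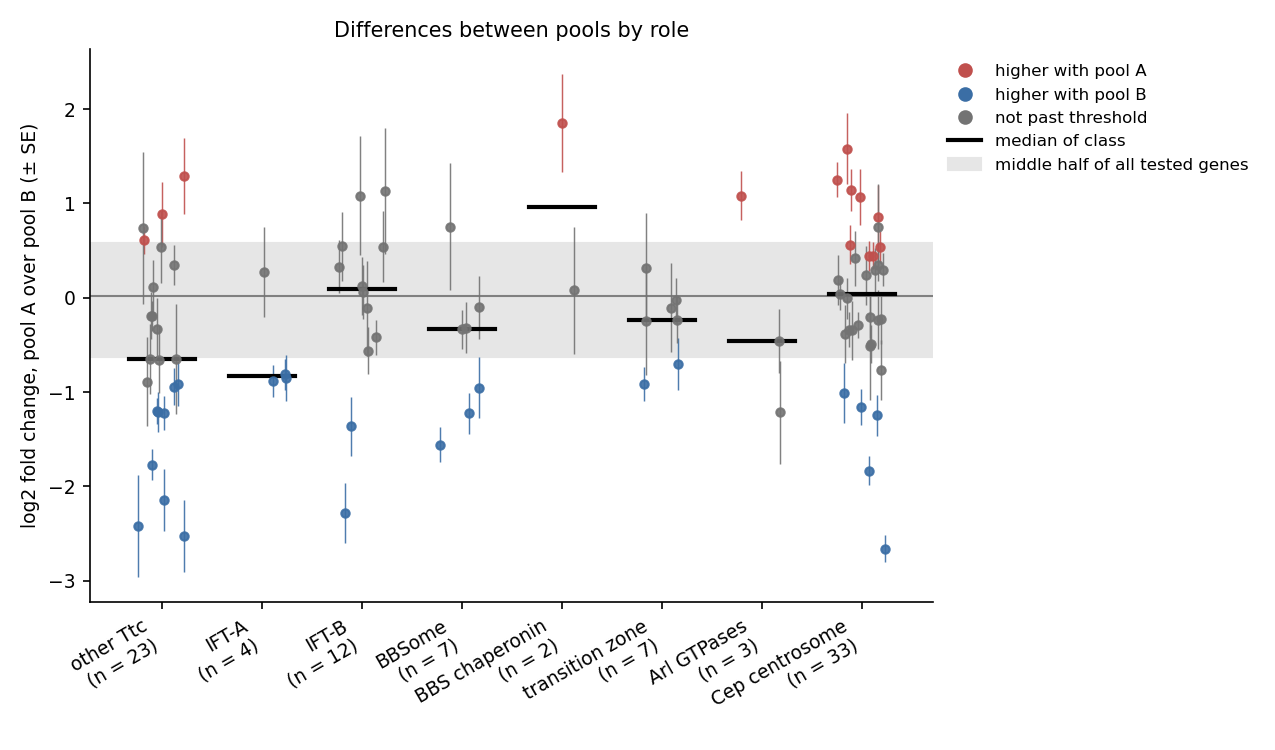
Each point is a tested gene, placed by role on the x axis and by its log2 fold change of pool A over pool B on the y axis, with its standard error, and black lines mark the median of each role. The grey band spans the quartiles of all 11582 tested genes, from -0.63 to 0.58, as a reference for single points; the medians are -0.65 for the Ttc genes outside IFT and the BBSome, -0.83 for the 4 IFT-A genes and 0.04 for the Cep genes, whose points lie on both sides of 0.

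Among the Ttc genes the differences over 4-fold were those of Ttc12, Ttc39a and Ttc5. Of all tested genes, 4.39% were called higher with pool B by more than 4-fold, and 5 of the 91 tested members were, the others being Cep85 and Ift88. Ttc12 (ENSRNOG00000008595), an assembly factor for the dyneins of motile cilia, had 3.53, 6.33 and 5.02 CPM in the pool A libraries and 41.6, 21.4 and 29.9 CPM in the pool B libraries. Every pool B library was above every pool A library, although the pool B values spread widely. Its log2 ratio was -2.52 (SE 0.38, edgeR adjusted p = 4.79e-06). Ttc39a had 2.44, 3.95 and 1.57 CPM in the pool A libraries and 11.9, 12.6 and 22.3 CPM in the pool B libraries, a log2 ratio of -2.42 (SE 0.54, edgeR adjusted p = 6.56e-04), on only 5 to 10 counts in each pool A library. Ttc5, a cofactor that recognises newly made tubulin on the ribosome, had 8.14, 9.10 and 5.33 CPM in the pool A libraries and 30.3, 39.97 and 40.5 CPM in the pool B libraries. The 3 pool B libraries lay close together and far above pool A, with a log2 ratio of -2.14 (SE 0.33, edgeR adjusted p = 5.40e-06).

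More abundant Ttc genes differed in the same direction by smaller factors. Ttc13 had 47.5, 61.3 and 66.5 CPM in the pool A libraries and 208, 220.1 and 229.6 CPM in the pool B libraries, groups that lie well apart, and a log2 ratio of -1.77 (SE 0.16, edgeR adjusted p = 5.37e-10). Ttc3, a ubiquitin ligase, had 197, 196 and 199.5 CPM in the pool A libraries and 549, 433 and 526 CPM in the pool B libraries. Pool A libraries were nearly identical here, and the log2 ratio was -1.20 (SE 0.14, edgeR adjusted p = 3.38e-08). Ttc37, a subunit of the Ski complex that feeds RNA to the cytoplasmic exosome, had 44.3 to 62.9 CPM across pool A and 126 to 177 CPM across pool B, with a log2 fold change of -1.22 ± 0.18 (SE). Ttc14, Ttc39b and Ttc27 gave -1.21 ± 0.21 (SE), -0.94 ± 0.19 (SE) and -0.91 ± 0.23 (SE), each with separate ranges. The tenth, Ttc21b, belongs to IFT-A and is described with it. Ttc3, Ttc14, Ttc37 and Ttc39a overlap a protein-coding neighbour in the RefSeq annotation (Pigp, Ccdc39, Fam81b and Rnf11). Whether reads were counted by strand is not stated, so reads of such pairs may not have been separated. The log2 fold change of Pigp was 1.21 ± 0.64 (SE) and that of Ccdc39 -0.19 ± 0.42 (SE), neither past the threshold.

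The 3 Ttc genes higher with pool A had log2 ratios from 0.61 to 1.29. Ttc9c had 158, 161 and 177 CPM in the pool A libraries and 107, 132 and 121 CPM in the pool B libraries. All pool A values exceeded all pool B values by a narrow margin, and the log2 ratio was 0.61 (SE 0.15, edgeR adjusted p = 0.00137). Ttc38 had 14.2 to 19.8 CPM across pool A and 6.57 to 8.32 CPM across pool B, a log2 ratio of 1.29 (SE 0.40, edgeR adjusted p = 0.0112), and lost the call without pool A replicate 1 (adjusted p = 0.0747 in edgeR). Ttc19, a mitochondrial factor needed for respiratory complex III, had 16.01 to 27.6 CPM across pool A and 10.4 to 13.3 CPM across pool B and a log2 ratio of 0.88 (SE 0.35, edgeR adjusted p = 0.042). That call was lost in 10 of 16 alternatives, with adjusted p between 0.0231 and 0.193 over them, among them the fits without pool A replicate 2 or 3 and without any single pool B library. Ttc19 also overlaps Zswim7.

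Of the 14 tested Ttc genes that passed in neither direction, several are partners of chaperones or lipid kinases. Ttc4, a partner of the chaperone Hsp90, stood at a log2 fold change of -0.65 ± 0.37 (SE) with ranges that do not overlap, and Ttc17, which has a role in ciliogenesis, had -0.20 ± 0.16 (SE). Ttc7a and Ttc7b, scaffolds of the lipid kinase that makes phosphatidylinositol phosphate at the plasma membrane, had 0.35 ± 0.21 (SE) and -0.19 ± 0.25 (SE). Ttc1 was at 19.8 to 24.1 CPM across pool A and 18.7 to 27.9 CPM across pool B, so the groups overlapped. Ttc25, a docking factor of outer dynein arms, had 12.5, 16.6 and 16.6 CPM in the pool A libraries and 43.97, 18.6 and 15.9 CPM in the pool B libraries. A single pool B library stood high, its log2 ratio was -0.66 (SE 0.35, edgeR adjusted p = 0.146), and single libraries moved it: without pool B replicate 1, the high library, it was -0.034 (edgeR adjusted p = 0.958), and without pool B replicate 3 it was -0.92 (edgeR adjusted p = 0.0495).

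**Figure D3:**
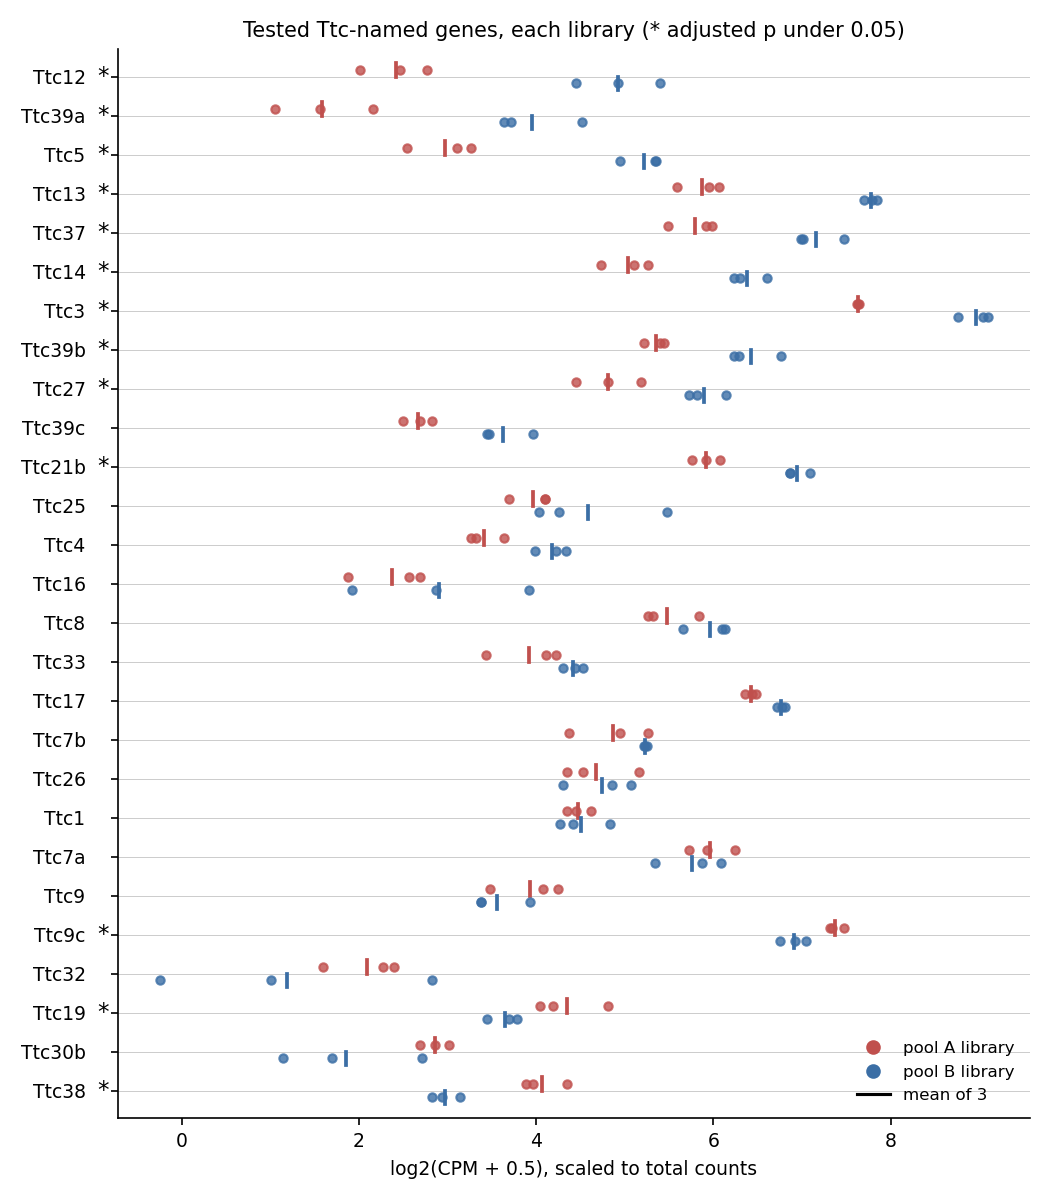
Each row is a tested Ttc gene, sorted by fold change, with its level in every library on a log2(CPM + 0.5) axis, red for pool A and blue for pool B, and short lines for the mean of 3 libraries. Asterisks mark the 13 genes past an adjusted p of 0.05: blue points lie to the right in the 10 called genes toward the upper end of the order and red points in Ttc9c, Ttc19 and Ttc38 near its lower end.

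Of 4 tested IFT-A members, 3 were higher with pool B, Ttc21b, Ift122 and Ift140, where 22.0% of all tested genes were. Ttc21b had 53.7, 59.7 and 66.8 CPM in the pool A libraries and 116, 135 and 116 CPM in the pool B libraries, without overlap, and a log2 ratio of -0.88 (SE 0.17, edgeR adjusted p = 9.79e-05). Ift140 had 75.4, 68.8 and 99.1 CPM in the pool A libraries and 136, 186 and 151 CPM in the pool B libraries, also without overlap, and a log2 ratio of -0.81 (SE 0.16, edgeR adjusted p = 2.07e-04). For Ift122, with 18.6 to 35.4 CPM across pool A and 45.4 to 68.5 CPM across pool B, the value was -0.85 ± 0.24 (SE), and the call was lost without pool A replicate 2 or pool B replicate 1, its highest adjusted p being 0.0575. Ift43, a small IFT-A subunit, had 0.27 ± 0.48 (SE) and overlapping groups. Of the IFT-A genes outside the name rule, Wdr35 was called, with a log2 ratio of -0.97 (SE 0.33, edgeR adjusted p = 0.0189), lost without pool A replicate 2, pool A replicate 3 or pool B replicate 2. Wdr19 had 0.74 ± 0.43 (SE), short of the threshold (edgeR adjusted p = 0.186).

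In IFT-B, Ift88 and Ift20 passed, both higher with pool B, and 10 of the 12 tested members did not pass. Among these members chosen by name that is 16.7% higher with pool B and 0% with pool A, below the 22.0% and 18.6% of all tested genes. Ift88 (ENSRNOG00000009278), a core subunit whose loss abolishes cilia in mice, had 7.05, 6.72 and 7.53 CPM in the pool A libraries and 32.04, 47.6 and 36.3 CPM in the pool B libraries. The pool A libraries were tightly grouped at a low level, and the log2 ratio was -2.28 (SE 0.31, edgeR adjusted p = 1.03e-06). Ift20, the subunit that also resides at the Golgi, had 9.77, 13.8 and 10.04 CPM in the pool A libraries and 27.3, 37.8 and 31.02 CPM in the pool B libraries, a log2 ratio of -1.36 (SE 0.31, edgeR adjusted p = 8.46e-04). Ift52 and Ift57 had values of -0.56 ± 0.25 (SE) and -0.42 ± 0.18 (SE) with separate ranges and adjusted p-values of 0.0704 and 0.0704 in edgeR. The others, Ift22, Ift27, Ift46, Ift74, Ift80, Ift81, Ttc26 and Ttc30b, overlapped between pools and lay between -0.11 ± 0.50 (SE) for Ift74 and 1.13 ± 0.66 (SE) for Ift22. Ttc30a1 and Ttc30b are close copies that can share reads, and Ttc30a1 had too few counts to be tested. From the fixed list, the IFT-B genes Cluap1 and Traf3ip1 were higher with pool B as well, by -1.003 ± 0.23 (SE) and -0.60 ± 0.15 (SE). Hspb11, also from that list, had -0.81 ± 0.77 (SE) and did not pass. Over the whole IFT-B list, 4 of 15 tested genes (26.7%) were higher with pool B, above the 22.0% of all tested genes.

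Of 11 tested genes of the motors that pull the trains, 3 were called higher in pool B and 2 in pool A, or 27.3% and 18.2%, near the 22.0% and 18.6% of all tested genes. Kif3b, a motor subunit of the heterotrimeric kinesin, had 45.3, 26.9 and 31.1 CPM in the pool A libraries and 155, 168 and 121 CPM in the pool B libraries, a log2 ratio of -1.94 (SE 0.20, edgeR adjusted p = 6.20e-09). Kifap3, the adaptor subunit of the same kinesin, lay the other way, with 64.03, 70.00 and 56.5 CPM in the pool A libraries and 20.5, 12.6 and 6.81 CPM in the pool B libraries and 2.39 (SE 0.29, edgeR adjusted p = 1.29e-07). In the ciliary dynein the heavy chain Dync2h1 was higher with pool B (-1.15 ± 0.18 (SE); chosen after its value was seen) and the light intermediate chain Dync2li1 with pool A (1.60 ± 0.39 (SE)). Wdr60, an intermediate chain, had -1.19 ± 0.44 (SE) and lost the call without pool A replicate 1, pool A replicate 3 or pool B replicate 1.

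Of 7 tested BBSome subunits, 3 (42.9%) were called, each higher with pool B, where 40.6% of all tested genes were called in either direction and 22.0% toward pool B. Bbs1, the subunit that contacts Arl6, had 31.2, 33.6 and 35.4 CPM in the pool A libraries and 93.7, 125 and 109 CPM in the pool B libraries. Pool B values were above pool A in all libraries, with a log2 ratio of -1.56 (SE 0.19, edgeR adjusted p = 1.09e-07). Bbs2, a core subunit, had 29.3, 36.4 and 29.2 CPM in the pool A libraries and 60.7, 83.8 and 101 CPM in the pool B libraries and -1.23 (SE 0.22, edgeR adjusted p = 5.00e-05). Bbs7, which pairs with Bbs2 in the complex, had 11.4 to 11.6 CPM across pool A and 22.8 to 26.5 CPM across pool B and -0.95 ± 0.32 (SE); the call was lost without pool A replicate 3 or pool B replicate 3, with adjusted p up to 0.0679. Ttc8, the TPR subunit, had -0.34 ± 0.21 (SE), and Bbs4, Bbs9 and Bbs5 had -0.32 ± 0.27 (SE), -0.10 ± 0.33 (SE) and 0.75 ± 0.67 (SE), none past the threshold. Bbs10, a chaperonin-like protein that helps to assemble the BBSome, was higher with pool A, at 15.2, 12.7 and 13.8 CPM in the pool A libraries and 3.07, 1.64 and 7.57 CPM in the pool B libraries, a log2 ratio of 1.85 (SE 0.52, edgeR adjusted p = 0.00485), which rests on 9, 3 and 20 counts in the pool B libraries and was 2.63 without pool B replicate 3. Bbs12, of the same chaperonin-like group, had 0.08 ± 0.67 (SE).

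At the transition zone, Cep290 was called higher with pool B. Cep290, a scaffold that links microtubules to the ciliary membrane, had 49.4, 69.2 and 91.9 CPM in the pool A libraries and 142, 142 and 151 CPM in the pool B libraries, and all 3 pool B libraries lay together above pool A, with a log2 ratio of -0.91 (SE 0.18, edgeR adjusted p = 1.46e-04). Nphp4, Mks1, Tctn1, Tctn2 and Tmem67 had log2 fold changes between -0.24 ± 0.57 (SE) for Tmem67 and 0.32 ± 0.58 (SE) for Tctn1, none past the threshold. Of 9 tested transition zone genes without such names, 2 were called higher in pool A and 3 in pool B, or 22.2% and 33.3%, against 18.6% and 22.0% of all tested genes. B9d2 had -2.02 ± 0.37 (SE), Tmem237 -1.24 ± 0.22 (SE), Tmem231 -1.34 ± 0.49 (SE) and Rpgrip1l 1.63 ± 0.36 (SE). Rpgrip1l rests on 30, 11 and 90 counts in the pool B libraries, and without pool B replicate 3 its log2 fold change was 2.67. The second gene higher in pool A, Cc2d2a (0.56 ± 0.22 (SE)), lost its call without pool A replicate 1 or 3 or pool B replicate 1 or 2. The Tmem231 call was lost without pool A replicate 1, pool A replicate 2 or pool B replicate 2, and its value was -1.93 without pool A replicate 3.

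Of the 3 GTPases, Arl3 passed (33.3%), where 40.6% of all tested genes were called in either direction. Arl3, which releases lipid-anchored cargo from its carriers, was higher with pool A, at 39.6, 39.2 and 48.3 CPM in the pool A libraries and 18.1, 18.1 and 29.5 CPM in the pool B libraries. The groups were separate and the log2 ratio was 1.08 (SE 0.26, edgeR adjusted p = 0.00119). Arl6, which recruits the BBSome to membranes, had 19, 16 and 7 counts in the pool A libraries and 33, 32 and 19 in the pool B libraries, and its log2 ratio of -1.21 (SE 0.55, edgeR adjusted p = 0.0795) did not pass. Arl13b, the activator of Arl3, had -0.46 ± 0.34 (SE). Their partner Inpp5e, the ciliary phosphoinositide phosphatase, was higher with pool B at 18.7, 9.10 and 6.90 CPM in the pool A libraries and 74.6, 64.1 and 96.5 CPM in the pool B libraries, a log2 ratio of -2.58 (SE 0.29, edgeR adjusted p = 4.05e-08). Arl2bp was higher with pool A (1.002 ± 0.22 (SE)), and Unc119b, a carrier of myristoylated proteins, with pool B (-0.82 ± 0.18 (SE)).

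**Figure D4:**
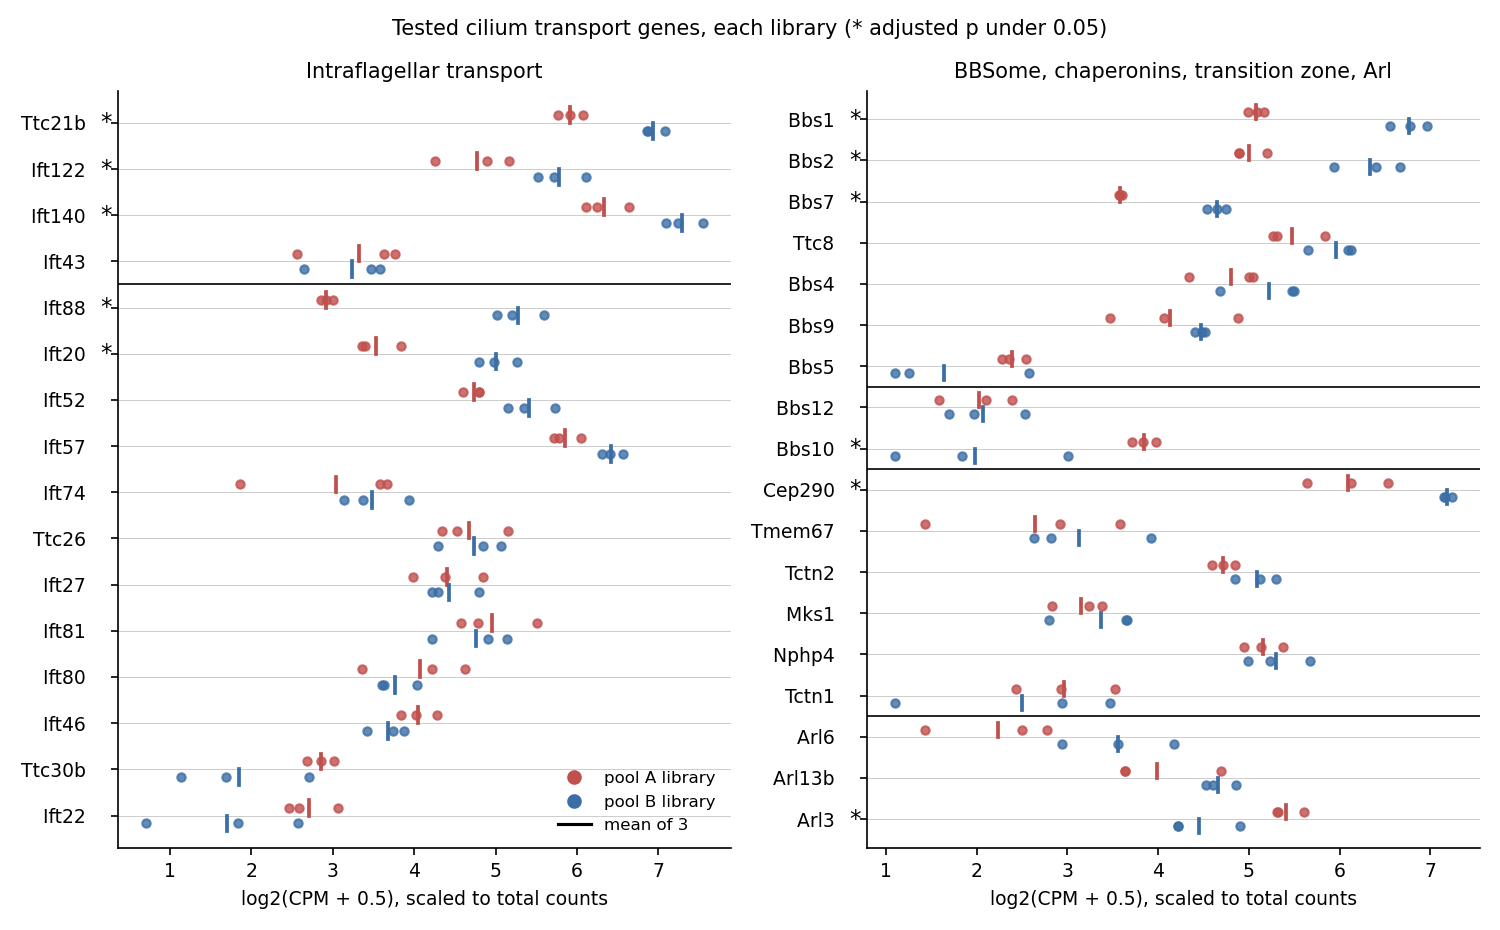
Levels of the tested IFT genes (left panel, IFT-A above IFT-B) and of tested BBSome, chaperonin, transition zone and Arl genes (right panel, in that order and separated by lines) in every library, as log2(CPM + 0.5). Red marks pool A, blue marks pool B, short lines are means of 3 and asterisks mark an adjusted p under 0.05; the blue points of Ift88, Bbs1 and Cep290 lie clear to the right of the red ones, and those of Bbs10 and Arl3 to the left.

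The Cep genes of the centrosome spread in both directions. Of 33 tested (Cep290 aside), 9 (27.3%) passed in favour of pool A and 5 (15.2%) in favour of pool B, against 18.6% and 22.0% of all tested genes, with a median log2 fold change of 0.04, or -0.10 with library totals. Cep85 (ENSRNOG00000016249), which takes part in centriole duplication, had 60.2, 60.1 and 62.1 CPM in the pool A libraries and 409, 465 and 405 CPM in the pool B libraries. Its log2 ratio of -2.66 (SE 0.14, edgeR adjusted p = 2.03e-14) was the most negative of the 91 tested members. Cep250 had 878, 674 and 1042 CPM in the pool A libraries and 2891, 3569 and 3700.4 CPM in the pool B libraries, and the pools were widely separated, with a log2 ratio of -1.83 (SE 0.15, edgeR adjusted p = 8.72e-11). In RefSeq its span overlaps that of C3h20orf173. Cep72, a protein of centriolar satellites, and Cep89, of the distal appendages, had -1.25 ± 0.22 (SE) and -1.16 ± 0.19 (SE), and Cep85l, a relative of Cep85, had -1.01 ± 0.32 (SE), a call lost without pool A replicate 2 or pool B replicate 1.

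Higher with pool A were Cep97, which caps centrioles together with Ccp110, and Cep128, a protein of the subdistal appendages. Cep97 had 32.3, 30.5 and 14.4 CPM in the pool A libraries and 6.48, 10.4 and 12.1 CPM in the pool B libraries, with a log2 ratio of 1.58 (SE 0.38, edgeR adjusted p = 0.00129). Cep128 had 131, 168 and 189.8 CPM in the pool A libraries and 90.3, 51.5 and 82.5 CPM in the pool B libraries, with a log2 ratio of 1.25 (SE 0.19, edgeR adjusted p = 3.36e-06). Both showed groups without overlap, as did Cep83 (1.14 ± 0.22 (SE)) and Cep112 (1.06 ± 0.30 (SE)). Cep41, Cep120, Cep170b and Cep164 passed with overlapping CPM ranges and log2 fold changes from 0.44 ± 0.16 (SE) to 0.86 ± 0.33 (SE). With library totals none of these 4 passed in edgeR, with adjusted p-values from 0.0924 to 0.173. The calls of these 4 also hung on single libraries, and Cep83, Cep112 and these 4 are named after their values were seen. Without pool A replicate 3 all 4 calls were lost, and without pool A replicate 2 those of Cep41, Cep120 and Cep164. Cep41 and Cep164 also lost theirs without pool B replicate 1, Cep120 and Cep164 without pool B replicate 2, and Cep41, Cep120 and Cep170b without pool B replicate 3. Cep57 had the smallest difference, -0.01 ± 0.22 (SE).

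**Figure D5:**
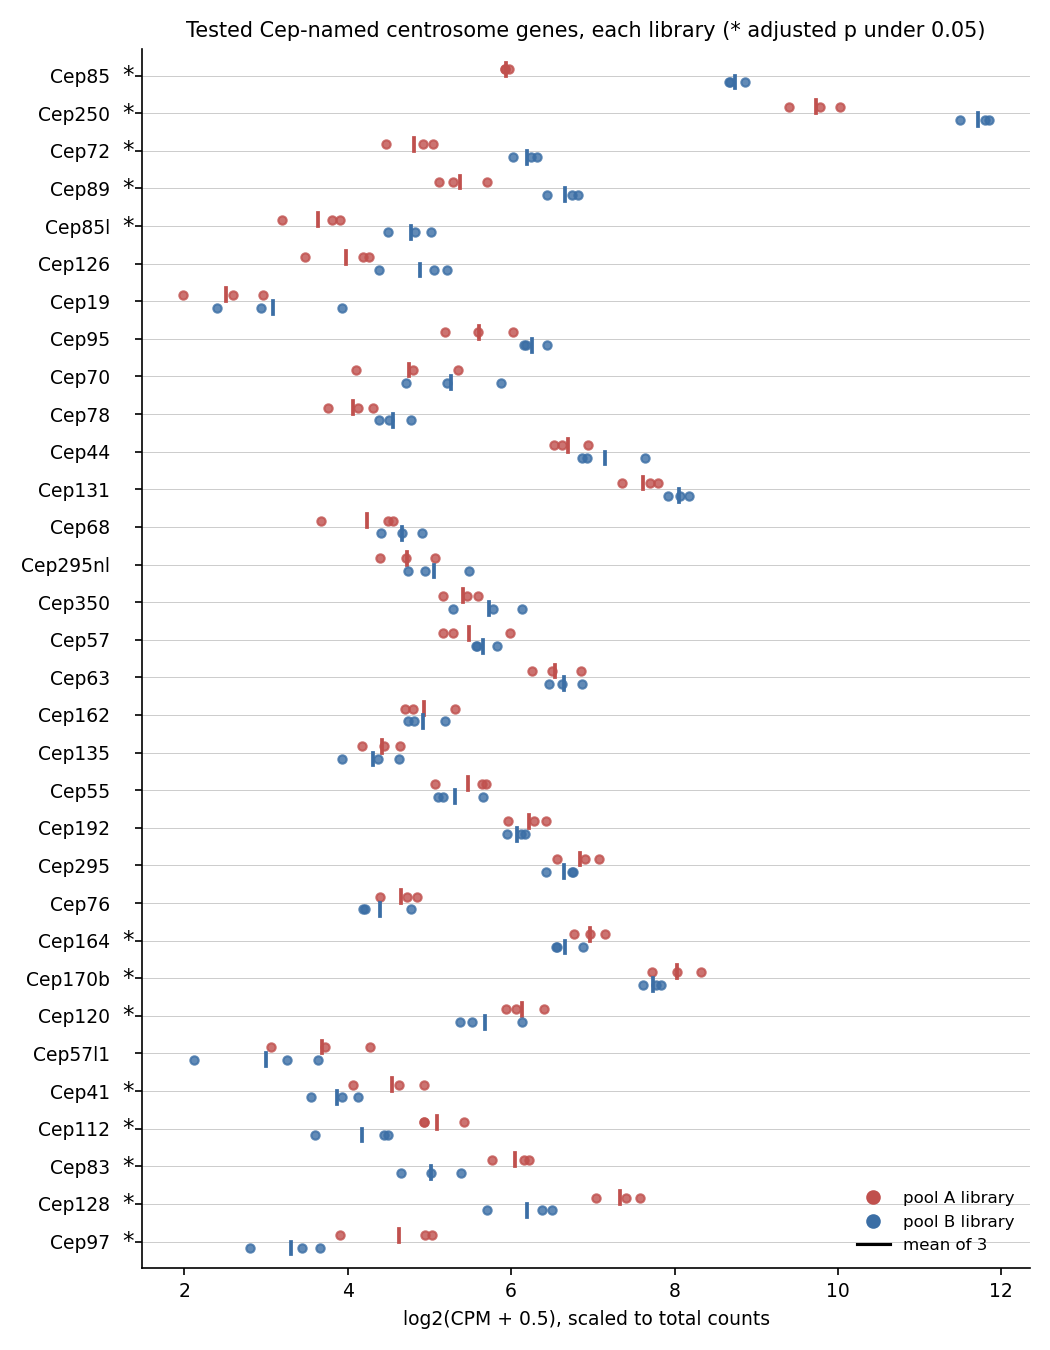
Rows are tested Cep genes of the centrosome class, sorted by fold change, with the 6 library levels as log2(CPM + 0.5), red for pool A, blue for pool B and short lines for means of 3. Cep85 and Cep250 at one end show blue points far to the right, Cep97 and Cep128 at the other end show red points to the right, and asterisks mark an adjusted p under 0.05.

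Of 31 tested genes of the centriole and its satellites outside the name rule, 6 were called higher in pool A and 9 in pool B, or 19.4% and 29.0%, against 18.6% and 22.0% of all tested genes. Haus8 and Haus7, subunits of the augmin complex that branches microtubules, had 98.9 to 128 CPM across pool A and 787 to 1046 CPM across pool B and 19.8 to 20.7 CPM across pool A and 76.3 to 107 CPM across pool B, with log2 fold changes of -2.94 ± 0.15 (SE) and -2.09 ± 0.21 (SE). The augmin genes Haus1, Haus3, Haus4, Haus5 and Haus6 did not pass. Their log2 fold changes ran from -1.66 ± 0.82 (SE) for Haus1 to 0.41 ± 0.49 (SE) for Haus6. Cenpj, which sets centriole length, had -1.97 ± 0.18 (SE). Nin, the subdistal appendage protein ninein, was higher with pool A by 2.18 ± 0.16 (SE). Of 10 tested Hedgehog genes that act at the cilium, 1 was called higher in pool A and 2 in pool B (10% and 20%), below the 18.6% and 22.0% of all tested genes. In either direction 30% were called and 30% had separate ranges, against 40.6% and 49.1% of all tested genes. The gene higher in pool A, Kif7 (0.53 ± 0.20 (SE)), lost its call with library totals and without pool A replicate 1 or any single pool B library. The receptor Gpr161 had 7, 4 and 6 counts in the pool A libraries and 17, 23 and 22 in the pool B libraries, a log2 fold change of -2.12 ± 0.65 (SE), and lost the call without pool B replicate 2, and Iqce had -1.38 ± 0.24 (SE).

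Genes of TPR proteins without a Ttc name were set beside the Ttc genes. Of 51 tested, 13 (25.5%) were called toward pool A and 15 (29.4%) toward pool B, against 18.6% and 22.0% of all tested genes. In either direction 54.9% were called and 68.6% had separate ranges, against 40.6% and 49.1%. The median of their log2 fold changes lay at -0.05 (0.06 with upper-quartile factors), while the 27 Ttc genes had -0.65. The difference between these sets was not tested. Fkbp5, a partner of Hsp90 in steroid receptor complexes, had 64.3, 52.6 and 93.2 CPM in the pool A libraries and 596, 715 and 667 CPM in the pool B libraries, far apart, with a log2 ratio of -3.09 (SE 0.16, edgeR adjusted p = 8.90e-15). Tmtc1 and Dnajc3, both of the endoplasmic reticulum, had -2.52 ± 0.15 (SE) and -2.35 ± 0.22 (SE). Fkbp8, an anchored relative of Fkbp5 at mitochondria, lay the other way with 813, 623 and 700.2 CPM in the pool A libraries and 138, 159.9 and 112 CPM in the pool B libraries and a log2 ratio of 2.54 (SE 0.15, edgeR adjusted p = 1.35e-13).

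Promoter sequence, which the pool comparison did not use, was searched for spellings of the X-box. The spelling described here was chosen from 7 after their matches were seen, so its shares are a description, and no difference between the Ttc names and the others was tested. The X-box is bound by RFX factors, known regulators of ciliary genes, and its first arm reads GTTGCC. RefSeq promoters, from 250 bases before to 50 after an annotated start on the GRCr8 assembly, were found for 84 of the 102 genes. This arm, on either strand, was present in 24 of the 84 genes (28.6%), against 13.1% of all 27457 genes and 13.4% of 8308 tested genes that are not members. Among the Ttc genes 4 of 31 held it (12.9%), and among the others 20 of 53 (37.7%). The Ttc genes with the arm were Ttc26 and the untested Ttc21a, Ttc22 and Ttc23. Both arms together, as GTTNCC, 0 to 3 bases and GGNAAC, were found in 4 of the 84 (4.76%), all among the other names, against 0.929% of all genes. Of the other spellings, the whole box was in no member, its end from CCATGG in 0% of the Ttc genes and 3.77% of the others, and its end from ATGG in 6.45% and 5.66%, the opposite order. The 2 looser pairings of the arms were in 6.45% of the Ttc genes each and in 18.9% and 22.6% of the others. The median GC content was 58.3% for the Ttc promoters and 59.7% for the others, and the median number of CG pairs per promoter was 15 and 21. By call, 5 of 23 genes higher with pool B, 4 of 10 higher with pool A and 11 of 43 past neither threshold held the single arm. A match describes letters and shows no binding. To show how the arm sits, 60 bases wholly before the annotated start are printed for 6 genes, 5′ to 3′ on the gene's strand, with GTTGCC or its reverse complement GGCAAC in capitals. Ift88 and Cep89 were higher with pool B, Cep170b with pool A, and Mks1, Tctn2 and Arl6 did not pass.
Ift88, chr15:35688926-35688985, plus strand: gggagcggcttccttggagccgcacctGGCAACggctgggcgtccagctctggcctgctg
Cep89, chr1:97195025-97195084, plus strand: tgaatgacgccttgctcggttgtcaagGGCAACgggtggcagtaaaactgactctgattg
Cep170b, chr6:137602493-137602552, plus strand: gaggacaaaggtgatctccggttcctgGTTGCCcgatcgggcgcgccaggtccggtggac
Mks1, chr10:73153138-73153197, plus strand: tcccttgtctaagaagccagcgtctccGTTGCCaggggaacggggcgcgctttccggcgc
Tctn2, chr12:37668045-37668104, minus strand: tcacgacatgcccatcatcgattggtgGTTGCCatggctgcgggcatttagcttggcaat
Arl6, chr11:54181298-54181357, plus strand: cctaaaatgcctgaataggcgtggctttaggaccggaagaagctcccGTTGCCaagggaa
In Ift88, Mks1, Tctn2 and Arl6 the arm lies 29, 51, 37 and 8 bases before the start, and in Cep89 and Cep170b it lies 80 and 182 bases before it.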

How the data were processed

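The authors deposited whole-number counts per gene with Ensembl identifiers, taken as raw counts; STAR and featureCounts are named per the submitters' processing notes, and their versions, the genome build, the annotation and the strand setting are not given in the sources used here. The table's mean per pool was not used. Whole-table counts were fitted with edgeR 4.0.16 in R 4.3.3 (TMM, filterByExpr by pool, quasi-likelihood test, pool as the only term) and adjusted by Benjamini-Hochberg over 11582 genes, two-sided. CPM uses library totals. Members, pathway lists, role classes and tests were chosen with earlier results of these data known. Named genes were every tested Ttc gene, and per role up to 6 members (per list up to 4 other genes) with the largest called difference, separate ranges and a mean of at least 10 counts, plus the smallest difference per role. Of 102 members 101 matched RefSeq (GRCr8), 4 by an older name. The X-box was searched as 7 spellings on both strands; the whole box is GTTGCC, then ATGG, any base and AAC, and its ends start at CCATGG or ATGG. The test was first run on simulated counts with known changes. Within pools, chi-square over degrees of freedom between libraries was 5.9 to 9.47, so none was a repeat deposit. Alternatives included DESeq2 1.42.0 and limma 3.58.1 (voom). A few members are counted in the totals but not reported here by name or drawn in the plots of levels.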

Additional observations from a re-analysis of the deposited data

How the results depend on the processing

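Of 1368 refits of 86 named genes, 1281 kept their side of the threshold, 1254 of these also their direction, 86 lost the call and 1 gained it (Ttc25). The sign changed in 27 refits of 9 genes, none of them called, and no called gene changed sign. Members higher with pool A (14) became 8 with library totals and 7 at an adjusted p under 0.01, and 9 to 14 without a library. Those without a Ttc name (11) became 6 in each of these settings, and 7 to 12 without a library. Toward pool B, the members without a Ttc name (14) became 21 with library totals, while the Ttc genes stayed at 10. Ttc genes higher with pool A (3) became 1 at an adjusted p under 0.01. The Ttc median of -0.65 ranged from -0.67 to -0.28 without a library. The median of the other names, -0.11, was -0.27 with library totals, -0.0057 with upper-quartile factors, -0.20 with at least 10 counts in every library, -0.18 with limma-voom, and -0.18 to -0.053 without a library. The median of all tested genes was -0.13 with library totals and 0.12 with upper-quartile factors. The cause was not tested. With the replicate block, the members called numbered 13 for pool A and 24 for pool B, and the median of the other names was -0.18; same-numbered libraries deviated together with r of 0.0403, -0.0213 and 0.0175, so the numbers pair nothing. Leaving the rows around the 5.8S gene out of the library sizes gave 14 and 24. Depth limits statements on the 11 members that were not tested.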

Other observations

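The values of relatives within a name family are given here, and the differences between relatives were not tested. Ttc39a and Ttc39b were both called higher with pool B, Ttc39c had a log2 fold change of -0.89 ± 0.47 (SE) without passing (edgeR adjusted p = 0.139), and Ttc39d was not tested. Cep85 and Cep85l were both higher with pool B. Ttc9c was called higher with pool A while Ttc9 had 0.54 ± 0.38 (SE), and Cep57 and Cep57l1 had -0.01 ± 0.22 (SE) and 0.75 ± 0.46 (SE), neither past the threshold. In the RefSeq annotation, 22 of the 101 located members overlap a protein-coding neighbour, and 9 of these were called. Among the called ones are Cep290, Ift140 and Cep85l, which overlap Rlig1, Tmem204 and Pln. Reads of such pairs may not have been separated.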
